A study of Mus musculus with 4 samples.

Results

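Retnlg-low neutrophils are the neutrophils of these pleural effusions with little or no RNA of Retnlg, which codes for the secreted protein resistin-like gamma and is abundant in mature neutrophils of blood and marrow. They were chosen by their UMIs (unique molecular identifiers, each a counted RNA molecule). A barcode of 1000 to 10000 UMIs, at least 200 genes and at most 10% of UMIs from mitochondrially encoded (mt-) genes had to hold at least 1 UMI of Csf3r, none of Csf1r, S100a8 and S100a9 together at 50 or more per 10000 UMIs, and Retnlg under 20 per 10000. This gave 1333 cells of 2629 neutrophils of that gate and of 4744 barcodes that passed the quality limits. The other 1296 neutrophils, with Retnlg at 20 or more per 10000, are called Retnlg-high below.

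The cells came from C57BL/6 mice with malignant pleural effusions of Lewis lung carcinoma (LLC), a mouse lung tumour line. On day 11 mice received 1 of 4 intrapleural treatments: PBS, 1 µg LNP-cGAMP, 30 µg of the anti-PD-L1 antibody 10F.9G2, or LNP-cGAMP and anti-PD-L1 together (combination). LNP-cGAMP carries cGAMP, the cyclic dinucleotide that activates STING and through it interferon genes, in lipid nanoparticles, and the antibody keeps PD-L1 from engaging PD-1 on T cells. Cells of the pleural fluid were taken on day 13, 48 h after treatment, and cells of 3 mice were pooled into 1 10x Genomics library per treatment, so all groups carry the tumour, mouse ages are not analysed here, and no value below has a replicate check or a p-value. Intervals are exact 95% intervals that cover counting error only. Where 4 values follow each other without labels, they stand for PBS first, then LNP-cGAMP, then the antibody, then the combination.

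Neutrophils are made in the bone marrow, where they fill their granules in steps, and leave it for the blood when the marrow's hold through the chemokine receptor Cxcr4 weakens. In blood they age within hours and regain Cxcr4. In inflamed tissue and tumours they lose the transcripts of maturation and can take up programmes of survival, cytokine release and antigen presentation, which are often described as tissue adaptation.

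The libraries held 68828158 to 88855120 UMIs over all barcodes. Quality barcodes numbered 992 to 1450 per library and no barcode of a gated neutrophil occurred in more than 1 library. Retnlg-low cells had a median of 2039 to 2373.5 UMIs, against 2321 to 2813 in Retnlg-high cells, and a median of 0.439% to 0.916% of UMIs from mt- genes. All 13 neutrophil markers were found in the Retnlg-low cells of every library, at a summed 119351 to 166002 CPM (UMIs of a gene scaled to one common total for every group of cells), against 5777 to 16940 CPM in near-empty droplets of 10 to 100 UMIs. Csf3r, S100a8 and S100a9 of this list are gate genes that the cells were chosen by, and they make up most of the sum. The gate genes took 10.5% to 15.3% of UMIs in Retnlg-low cells, so the sum is no independent sign of cell type. A UMI of Xist was found in 13.2% of gated neutrophils of the anti-PD-L1 library and 14.7% of the combination library, and in none of PBS and LNP-cGAMP, so the cells of female mice in these pools cannot be told apart from the treatment in comparisons with PBS. Markers of monocytes and macrophages, of which 15 or 16 of 16 had a UMI, summed to 2341 CPM (PBS), 1409 CPM (LNP-cGAMP), 1069 CPM (anti-PD-L1) and 1773 CPM (combination) in Retnlg-low cells, and to 13034.5 to 15867.8 CPM in near-empty droplets. Markers of T, NK and B cells, LLC cells, basophils and mast cells summed to at most 63.6 CPM per list, and Prg2, Epx, Ear2, Ear6, Mcpt8 and Cpa3, which define eosinophils, basophils and mast cells, were at 0 in all 4 libraries. Of 8 eosinophil genes 3 or 4 had UMIs in Retnlg-low cells, mostly of Siglecf, and summed to 50.8, 58.2, 51.1 and 27.2 CPM, against 46.2, 23.1, 281 and 108 CPM in near-empty droplets. Of the Retnlg-low cells 8, 8, 6 and none held 2 or more of these UMIs (2.03%, 2.23% and 1.52% in the first 3 libraries), and their part in the results was not tested. The dendritic cell list, which holds the MHC class II genes, summed to 135 to 408 CPM with Flt3, Zbtb46, Xcr1, Clec9a and Siglech at 0 in every library. The red cell and platelet list summed to 6.79 to 270.3 CPM.

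Retnlg-low cells made up the largest share of the gated neutrophils in PBS and the smallest in the combination. The share was 60.7% in PBS (395 of 651 neutrophils, interval 56.8 to 64.4). In anti-PD-L1 it was 54.3% (394 of 725, 50.6 to 58.0). In LNP-cGAMP it was 45.4% (358 of 789, 41.9 to 48.9), and in the combination 40.1% (186 of 464, 35.6 to 44.7). The intervals of PBS and anti-PD-L1 overlapped, as did those of LNP-cGAMP and the combination, whereas those of the libraries with LNP-cGAMP lay below those of the libraries without it. Counted over all quality barcodes, Retnlg-low cells were 35.7%, 24.7%, 32.9% and 18.75%. Quality barcodes end at 10000 UMIs, and the macrophages described below had median depths of 21509 to 40756.5 UMIs. Most macrophages thus lie outside this count, and these are not shares of all cells of the fluid. A cell thinned to 1000 UMIs before the Retnlg limit gave shares of 57.1%, 41.4%, 50.2% and 34.7%, the same order as at the cells' own depth. When neutrophils with 2 or more UMIs of any other cell type's markers were left out, only 29, 198, 317 and 53 neutrophils were left, and the shares became 44.8%, 45.5%, 57.1% and 47.2%, which no longer put PBS first.

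**Figure D1:**
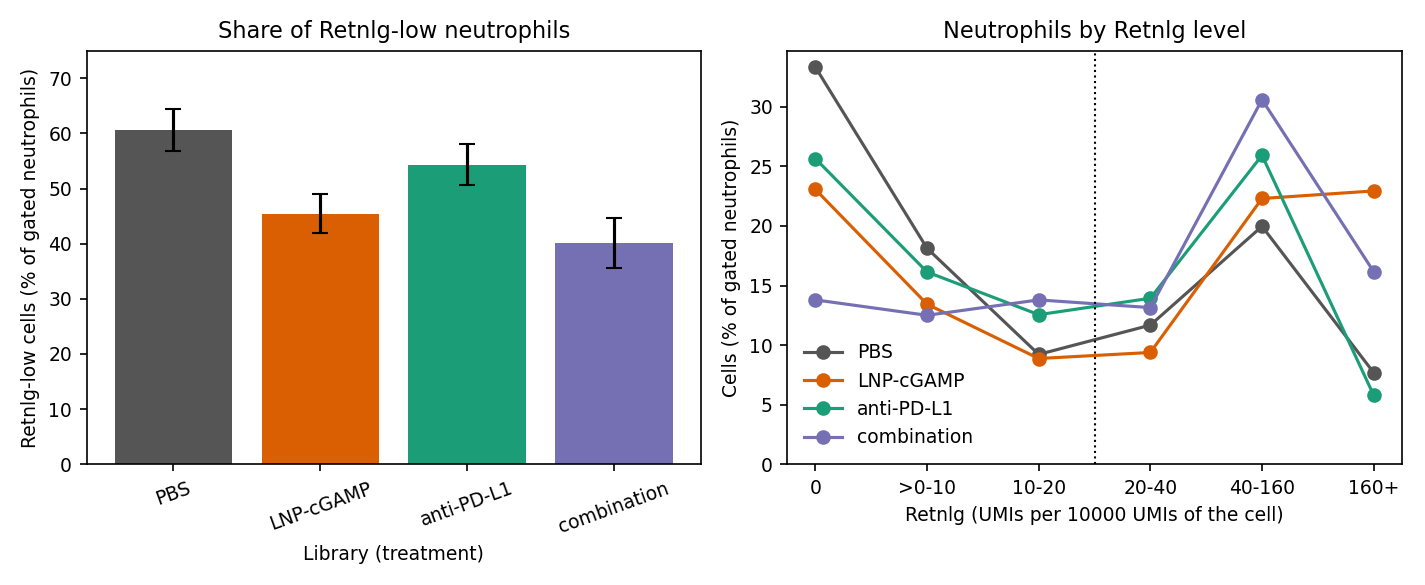
Left, Retnlg-low cells as a percentage of gated neutrophils in each library, with exact 95% intervals as bars. Right, percentage of gated neutrophils by Retnlg level (UMIs per 10000), with the limit of 20 as a dotted line: the cells run on through the limit, and the combination has the fewest cells at 0.

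The limit of 20 cuts a continuous range and does not separate a cell type. Retnlg was at 0 in 217, 182, 186 and 64 of the Retnlg-low cells. Just inside the limit, at 10 to under 20 per 10000, lay 60, 70, 91 and 64 cells in that order, and just outside it, at 20 to under 40, lay 76, 74, 101 and 61. In the combination 64 of 186 Retnlg-low cells were thus near the limit, against 60 of 395 in PBS.

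Cxcr4 and Csf1 stood higher in Retnlg-low than in Retnlg-high cells in each of the 4 libraries, and Mmp9 differed little. These ratios describe the gate, since the Retnlg limit made this contrast, and they carry no test. Cxcr4, the receptor for the chemokine Cxcl12 that holds neutrophils in the marrow and returns with age (chr1:128588199-128592293 on GRCm38), was at 217 CPM in PBS, 276 CPM in LNP-cGAMP, 174 CPM in anti-PD-L1 and 190 CPM in the combination in Retnlg-low cells. In Retnlg-high cells it was at 137, 186, 120 and 105 CPM in the same order, so each library's Retnlg-low cells were above its Retnlg-high cells, by log2 0.63, 0.55, 0.50 and 0.80. Csf1, which codes for macrophage colony-stimulating factor (chr3:107741048-107760469), was at 119, 185, 161 and 152 CPM in Retnlg-low cells and at 59.7, 62.5, 46.2 and 68.2 CPM in Retnlg-high cells. The groups did not overlap across libraries for Csf1, and the within-library log2 ratios were 0.89, 1.42, 1.61 and 1.05. Mmp9, the gelatinase of the late granules (chr2:164940780-164955850), was at 2251, 1452, 1276 and 1126 CPM in Retnlg-low and at 2116, 1209, 1056 and 1006 CPM in Retnlg-high cells. Its log2 ratios of 0.09, 0.26, 0.27 and 0.16 kept to the median of all genes, and with TMM scaling (trimmed mean of M values, which sets the bulk of genes level) they became -0.18, 0.0048, -0.12 and -0.10. Cxcr4 stayed above 0 in all 4 libraries under that scaling, at 0.38, 0.30, 0.14 and 0.56, and so did Csf1, at 0.64, 1.19, 1.27 and 0.81.

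Scaling bears on every ratio of Retnlg-low over Retnlg-high cells. The 5 gate genes, mostly S100a8 and S100a9, took 10.5% to 15.3% of UMIs in Retnlg-low cells and 18.3% to 22.8% in Retnlg-high cells, so all other genes gain CPM in the former. The median log2 ratio of all 2934 genes measured was 0.22, 0.22, 0.26 and 0.18, and ratios are to be read against these values.

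Thinned to 1000 UMIs per cell, 17.0%, 21.2%, 18.3% and 17.7% of Retnlg-low cells had a UMI of Cxcr4. The same shares before thinning were 27.3%, 36.9%, 27.7% and 28.5%. In macrophages of the same libraries (cells with at least 2 UMIs each of Csf1r and C1qa and none of Csf3r, with median depths of 21509 to 40756.5 UMIs) the thinned share was 0.274%, 1.89%, 0.609% and 1.00%, below every Retnlg-low share. Csf1 was found in 9.87%, 16.2%, 14.2% and 11.8% of thinned Retnlg-low cells and Mmp9 in 74.7%, 63.1%, 58.4% and 51.6%, against at most 0.274% and 3.47% of thinned macrophages. In thinned Retnlg-high cells Cxcr4 was found in 12.9%, 16.9%, 13.0% and 11.5% and Mmp9 in 75.4%, 60.6%, 56.8% and 58.6%. For both genes the intervals of the neutrophil groups overlapped in every library. Csf1 was found in 7.42%, 8.12%, 4.83% and 5.40% of thinned Retnlg-high cells, with intervals apart from Retnlg-low cells in LNP-cGAMP and anti-PD-L1 only. Unthinned, Csf1 was found in 15.4%, 26.8%, 22.1% and 24.7% of Retnlg-low cells and Mmp9 in 85.3%, 81.0%, 77.9% and 74.2%.

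Along the Retnlg range, Cxcr4 was highest in cells without Retnlg in each library, at 251 CPM (PBS), 313 CPM (LNP-cGAMP), 203 CPM (anti-PD-L1) and 301 CPM (combination). It was at 101, 160, 47.2 and 93.9 CPM in cells with Retnlg at 160 or more per 10000. Csf1 ran from 99.6, 208, 193 and 273 CPM to 36.2, 42.0, 0 and 34.2 CPM between the same ends. Mmp8, the neutrophil collagenase, ran the other way, from 81.5, 673, 185 and 574 CPM at no Retnlg to 899, 4674, 1267 and 2502 CPM at the top. Mmp9 was at 2496 (interval 2351 to 2648), 1569 (1447 to 1698), 1439 (1323 to 1562) and 1263 CPM (1083 to 1464) in cells without Retnlg. At the top of the range it was at 2044 (1812 to 2297), 1157 (1074 to 1245), 1511 (1305 to 1740) and 1183 CPM (1048 to 1331). The ends did not overlap in PBS and LNP-cGAMP, where Mmp9 was lower at the top, and overlapped in the other libraries. In every bin of Retnlg its level was highest in PBS.

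**Figure D2:**
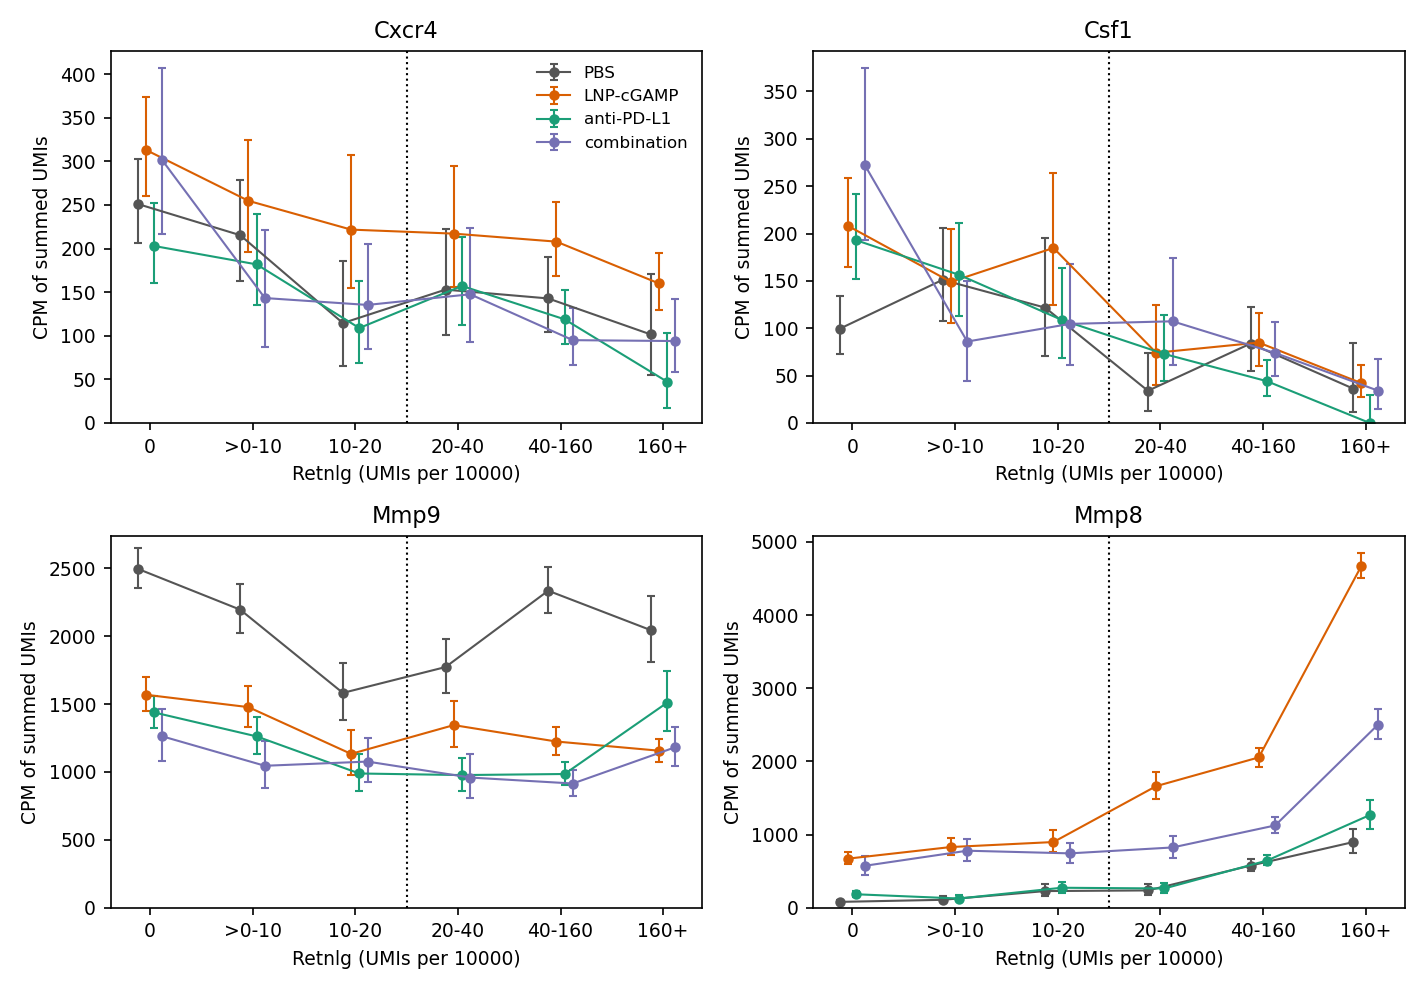
CPM of summed UMIs (vertical axes, linear) of Cxcr4, Csf1, Mmp9 and Mmp8 in gated neutrophils by Retnlg level (UMIs per 10000) and library, with exact 95% Poisson intervals as bars and the limit of 20 as a dotted line. Cxcr4 and Csf1 are lower and Mmp8 is higher in the cells richest in Retnlg than in those without it, and Mmp9 in PBS lies above the other libraries.

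A gene counts as higher or lower where the ratio of CPM + 10 reaches 1.5-fold, which is 0.585 on the log2 scale. Of the 2934 genes measured, 33 (1.12%) were higher and 13 (0.443%) were lower in Retnlg-low than in Retnlg-high cells in all 4 libraries, and with TMM scaling 6 were higher and 37 lower. The genes with the largest differences in all 4 libraries by the smallest ratio were Pmaip1, Icam1, Scimp, Slc36a3os, Clec4n, Ggct, Csf1, Tuba8, Lair1, Rbm38, Marcksl1 and Psmb10 on the higher side. On the lower side they were Stfa3, Ngp, Rdh12, Mmp8, Wfdc21, Prok2, Stfa2 and Lcn2. These ratios were made by the gate, as above, and are a profile only.

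Among the higher genes, Pmaip1, which codes for the death-promoting protein Noxa, was at 40.2 CPM (PBS), 80.5 CPM (LNP-cGAMP), 32.9 CPM (anti-PD-L1) and 43.0 CPM (combination) in Retnlg-low cells and at 3.30 to 16.4 CPM in Retnlg-high cells. The groups did not overlap, and the log2 ratios ran from 1.57 to 1.78. Clec4n, the fungal-sugar receptor Dectin-2, was at 469, 450, 488 and 412 CPM against 127, 127, 248 and 202 CPM, with log2 ratios of 1.80, 1.75, 0.95 and 0.99, larger in PBS and LNP-cGAMP than in the other pair of libraries. Scimp, an adaptor of Toll-like receptor signalling, was at 174 to 299 CPM in Retnlg-low and 48.5 to 130 CPM in Retnlg-high cells. Icam1, the adhesion ligand of beta-2 integrins, was at 38.6 to 54.4 CPM against 11.8 to 18.0 CPM. Lair1, an inhibitory receptor for collagen, was at 61.2 to 89.8 CPM against 28.9 to 39.6 CPM, and at 284 to 337 CPM in macrophages. These higher genes stood apart between the groups in every library. Psmb10, a subunit of the immunoproteasome, had log2 ratios of 0.82 to 1.41, and Marcksl1, which codes for an actin-binding protein, of 0.83 to 1.14. Slc36a3os is an antisense gene, and its UMIs cannot be told apart from those of an overlapping gene if strand was not used in counting.

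Among the lower genes, Mmp8 was at 115 (PBS), 768 (LNP-cGAMP), 189 (anti-PD-L1) and 702 CPM (combination) in Retnlg-low cells and at 553, 3265, 623 and 1490.0 CPM in Retnlg-high cells, a log2 ratio of -2.18, -2.07, -1.67 and -1.07. Lcn2, the siderophore-binding lipocalin of the granules, was at 1269, 1493, 1358 and 1515 CPM against 2102, 5446, 2334 and 2610.1 CPM. Ngp, a protein of the granules filled in the marrow, had 1, 2, 2 and 0 UMIs in Retnlg-low cells, and was at 28.3, 159, 34.1 and 150 CPM in Retnlg-high cells. The levels of Mmp8 in the groups overlapped across libraries, and those of Lcn2 and Ngp did not. Wfdc21, a small whey acidic protein, was at 678 to 1074 CPM against 2120.4 to 2653 CPM, and Prok2, which codes for the chemokine-like prokineticin 2, at 32.2 to 50.8 CPM against 102 to 327 CPM. One cell held 67.4% of the Prok2 UMIs of Retnlg-low cells in PBS. Stfa2 and Stfa3, which code for inhibitors of cysteine proteases, belong to a cluster of near-identical genes, so their separate values are uncertain.

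**Figure D3:**
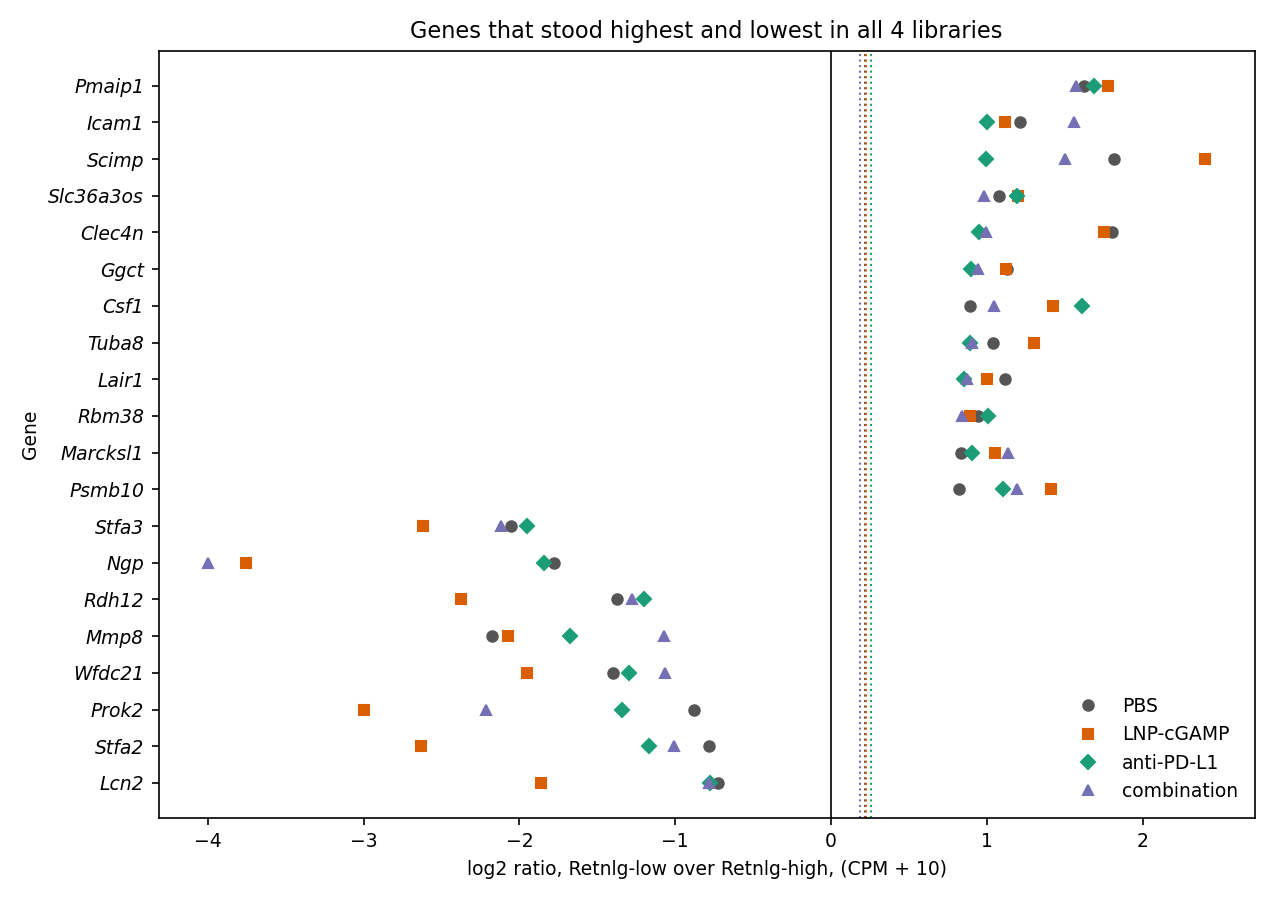
Log2 ratio of CPM + 10 in Retnlg-low over Retnlg-high cells of the same library (horizontal axis) for the 12 highest and 8 lowest genes, 1 symbol per library, with each library's median over all genes as a dotted line. Pmaip1 lies between 1.57 and 1.78, and Ngp in the combination rests on 0 UMIs in Retnlg-low cells.

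Of 24 measured genes of a list of tissue-adapted and aged neutrophils, 5 were higher in all 4 libraries (Csf1, Icam1, Ctsz, Cd274 and Clec4n) and none was lower in all 4, against 1.12% and 0.443% of all genes. Per library 12, 18, 9 and 13 were higher, beside 12.6%, 17.5%, 16.8% and 12.7% of all genes, and 1, 1, none and 1 lower, beside 2.11%, 4.23%, 1.47% and 2.45%, and the list's median log2 ratio was 0.56, 1.11, 0.47 and 0.66. The list was drawn up with these cells in view and holds Cxcr4 and Csf1. Cd274, which codes for PD-L1, was at 445 (PBS), 649 (LNP-cGAMP), 494 (anti-PD-L1) and 367 CPM (combination) in Retnlg-low cells and at 262, 258, 308 and 210 CPM in Retnlg-high cells. Each Retnlg-low value of Cd274 was above each Retnlg-high value. Ctsz, a lysosomal cathepsin, was at 228 to 440 CPM against 143 to 218 CPM and at 1251 CPM in the macrophages of PBS. Ctsz and Cd274 stayed above 0 with TMM scaling, but their smallest ratios became 0.27 and 0.29, below 1.5-fold. Clec4n also fell below 1.5-fold in anti-PD-L1 with that scaling.

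Of 22 measured genes of mature circulating neutrophils none was higher in all 4 libraries and 4 were lower: Mmp8, Lcn2, Wfdc21 and Ly6g, the surface antigen used to mark mouse neutrophils. Among all genes 1.12% were higher and 0.443% lower in all 4, and the counts of the lists below are read against these shares. Ly6g was at 46.1 (PBS), 63.2 (LNP-cGAMP), 93.1 (anti-PD-L1) and 129 CPM (combination) in Retnlg-low cells and at 168, 199, 157 and 252 CPM in Retnlg-high cells, without overlap. In contrast, Cxcr2, the receptor through which neutrophils answer to Cxcl chemokines, was at 1527 to 1819 CPM in Retnlg-low and 1518 to 1698 CPM in Retnlg-high cells, which overlapped. The granule list had 3 of 12 lower (Ngp, Lcn2 and Mmp8) and none higher in all 4 libraries. The list of metalloproteinases and their inhibitors had 1 of 6 lower (Mmp8) and none higher. Mmp8 is thus counted in the mature, granule and metalloproteinase lists, and Lcn2 in the mature and granule lists.

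MHC class I presentation genes stood above 0 in all 4 libraries for 18 of 18 measured, where 43.3% of all genes did so, and 5.66% of all genes stood below 0 in all 4. Of these, H2-Q7, Tap2 and Psmb10 passed 1.5-fold in all 4, beside 1.12% of all genes higher and 0.443% lower in all 4. With TMM scaling none of H2-Q7, Tap2 and Psmb10 passed 1.5-fold in all 4. Tap2, a subunit of the peptide transporter, was at 417 (PBS), 430 (LNP-cGAMP), 476 (anti-PD-L1) and 337 CPM (combination) against 273, 199, 272 and 171 CPM. The gap was narrower than 1.5-fold with TMM scaling, at a smallest log2 ratio of 0.33. B2m, the light chain of class I molecules, was at 2646, 4835, 2829 and 3366 CPM against 1627, 2677, 1985 and 2314 CPM. Of 16 measured apoptosis and survival genes 2 were higher in all 4 libraries, Pmaip1 and Bax, which both promote mitochondrial cell death, and none was lower. With TMM scaling Bax did not pass 1.5-fold in all 4. Bax was at 122 to 161 CPM against 46.1 to 84.8 CPM, without overlap, and at 281 to 421 CPM in macrophages. Of 22 measured genes of lysosome and iron handling 1 was higher (Ctsz) and none lower, of 14 of adhesion and migration 1 was higher (Icam1), and of 14 of the interferon-gamma response 1 was higher (Cd274). Of 8 measured cytokines and growth factors Csf1 was higher and Osm, which codes for oncostatin M, was lower in all 4. Counts of 1 gene are not results about a list, and Ctsz, Icam1, Cd274 and Csf1 are counted in the tissue-adapted list above too. No gene of the type I interferon, chemokine, chemokine receptor, NF-kB and immediate early, oxidase, heat shock, hypoxia and glycolysis, mt- or housekeeping lists passed 1.5-fold in the same direction in all 4.

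The treatments are compared next within Retnlg-low cells, which the Retnlg limit does not fix. The 3 treated libraries share the PBS library, so a value that is low or high in PBS enters all 3 comparisons. Of 2858 genes measured in Retnlg-low cells, 265 (9.27%) were higher and 450 (15.7%) lower in LNP-cGAMP than in PBS. In anti-PD-L1 97 (3.39%) were higher and 243 (8.5%) lower, and in the combination 186 (6.51%) were higher and 543 (19%) lower. The median log2 ratio of all genes was -0.14, -0.09 and -0.21 in that order. With TMM scaling the split turned, to 522 higher and 193 lower for LNP-cGAMP, 182 and 130 for anti-PD-L1, and 337 and 217 for the combination. A gene enters when it reaches 50 UMIs over the libraries and 50 CPM in 1 of them, so some enter through the library where they are high. In all 3 treated libraries 60 genes (2.1%) were higher and 108 (3.78%) lower than in PBS.

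Mmp9 was lower in each treated library than in PBS. LNP-cGAMP had 0.65 of the PBS level (interval 0.60 to 0.69), the antibody alone 0.57 (0.53 to 0.61) and the combination 0.50 (0.45 to 0.55), which is -0.63, -0.81 and -0.99 on the log2 scale, and -0.35 in LNP-cGAMP with TMM scaling. It was lower in Retnlg-high cells too, at -0.80, -0.995 and -1.06. Mmp9 was at 220 CPM in the near-empty droplets of PBS and at 51.6 to 77.6 CPM in those of the treated libraries. Its neighbour in function, Mmp8, was higher than in PBS in every treated library, at log2 2.64, 0.67 and 2.51 in the same order, and at 2.54, 0.17 and 1.41 in Retnlg-high cells. Cxcr4 was within 1.5-fold of PBS in all 3, except for a log2 ratio of 0.60 in LNP-cGAMP with TMM scaling, at 1.27-fold (1.04 to 1.55), 0.80-fold (0.64 to 1.00) and 0.87-fold (0.67 to 1.14). Csf1 was 1.55-fold (1.19 to 2.01) in LNP-cGAMP, 1.35-fold (1.04 to 1.76) in anti-PD-L1 and 1.27-fold (0.92 to 1.75) in the combination, and the intervals of the 3 overlapped. In cells without Retnlg, Csf1 was at 99.6 CPM (72.4 to 134) in PBS and 273 CPM (193 to 374) in the combination. With Retnlg above 0 and under 10, and at 10 to under 20, it was lower in the combination (85.9 and 105 CPM) than in PBS (151 and 122 CPM). The part of Retnlg level in these ratios was not tested. In order of level, Cxcr4 ran from LNP-cGAMP through PBS and the combination to anti-PD-L1, and only LNP-cGAMP and anti-PD-L1, or LNP-cGAMP and the combination, had intervals that did not overlap (241 to 315 CPM, 147 to 204 CPM and 152 to 236 CPM).

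Type I interferon genes made up the broadest group that stood above PBS in Retnlg-low cells. Of 40 measured genes of the list (42 in the gene table) 32 were higher in LNP-cGAMP, 15 with the antibody alone and 21 in the combination, and none was lower in any, against 9.27%, 3.39% and 6.51% of all genes. The list's median log2 ratio was 0.94, 0.44 and 0.68, beside -0.14, -0.09 and -0.21 for all genes. The combination stood below LNP-cGAMP: 18 of the 40 were lower (8.4% of all genes were) and 1 was higher (5.46% of all genes were), with a median of -0.56. Against anti-PD-L1 the combination had 7 higher (5.63% of all genes) and none lower (8.15%). In Retnlg-high cells 23, 19 and 20 of the 40 were higher than in PBS and none was lower, beside 7.14%, 4.23% and 5.14% of all genes higher and 13.8%, 13.2% and 13.8% lower. Counts of higher genes were above the share of all genes in both cell groups, and the difference between the groups was not tested.

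The 15 genes past 1.5-fold in all 3 treated libraries were Isg15, Ifit1, Ifit2, Ifit3, Ifit3b, Ifit1bl1, Irf7, Rsad2, Usp18, Ifi27l2a, Ifi204, Slfn5, Xaf1, Pyhin1 and Ly6e. Among all genes 60 (2.1%) were higher in all 3 treated libraries, and the 3 comparisons share the PBS library. Isg15, the ubiquitin-like modifier, was at 1979 CPM in PBS, 3923 CPM in LNP-cGAMP, 3279 CPM in anti-PD-L1 and 3171 CPM in the combination. Ifit3, one of the RNA-binding proteins that block viral translation, was at 230, 1586, 802 and 1053 CPM. Irf7, the transcription factor that carries the interferon loop forward, was at 547, 1749.7, 962 and 1375 CPM. PBS was lowest and LNP-cGAMP highest for each of the 3. Ifit1bl1, an Ifit1-like gene of the same cluster, had the largest ratio in LNP-cGAMP and in the combination: it was at 8.27 CPM in PBS, 487 CPM in LNP-cGAMP, 28.4 CPM in anti-PD-L1 and 233 CPM in the combination, or log2 4.77, 1.07 and 3.73. Pyhin1, a DNA-sensor-like protein of the same family as Mnda and Ifi204, was at 23.6, 383, 71.6 and 208 CPM, and Rsad2, the antiviral enzyme viperin, at 366, 1229, 580 and 793 CPM. The macrophages of the same libraries held less than Retnlg-low cells of Isg15 (170 to 618 CPM), Ifit3 (23.3 to 101 CPM) and Rsad2 (39.8 to 130 CPM). Ifit3 and Ifit3b are close copies, so their separate values are uncertain.

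**Figure D4:**
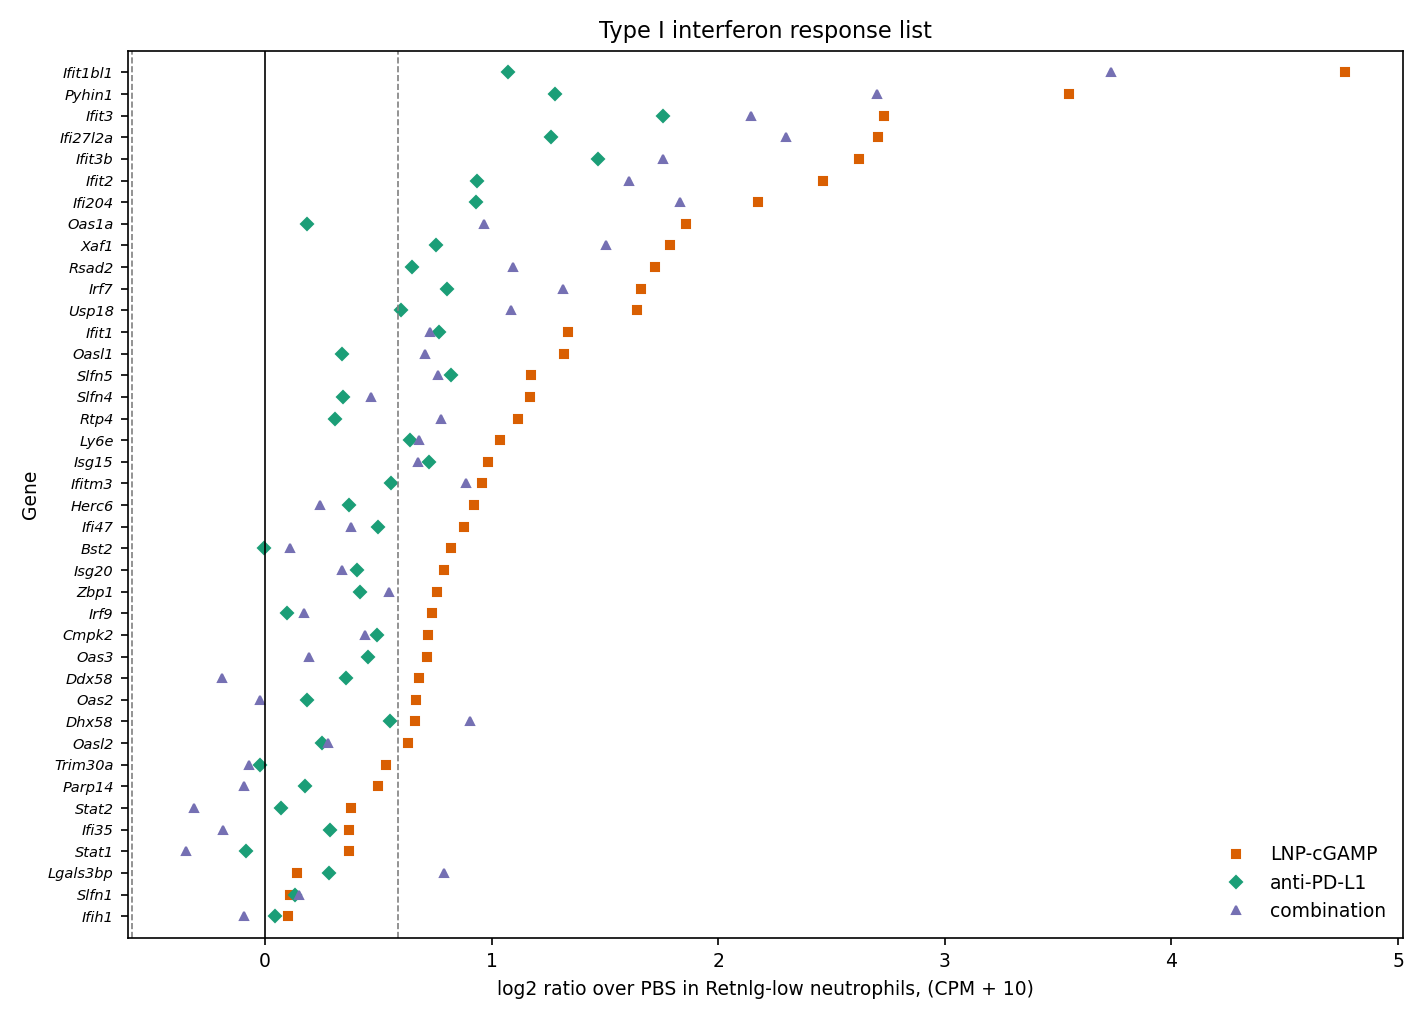
Log2 ratio of CPM + 10 over PBS in Retnlg-low cells (horizontal axis) for 40 type I interferon genes, with 1.5-fold in each direction as dashed lines and 1 symbol per treated library. LNP-cGAMP lies to the right of 1.5-fold for 32 genes, anti-PD-L1 for 15 and the combination for 21.

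The start regions of 4 of these genes are shown because they hold the letters of the interferon-stimulated response element, which interferon-activated STAT and IRF factors bind. The element was searched as GAAA, any 2 bases and GAAA again, on both strands and with overlapping matches counted, in the 250 bases before each RefSeq gene start on GRCm38.p6. It was found in 7 of the 10 genes past 1.5-fold in all 3 libraries that had a window in the table, in 12 of the 30 such genes of the whole list, and in 936 of all 27025 genes (3.46%). A match is a description of letters and not of a bound site. The windows are chr4:156200819-156201068 (minus strand), chr19:34640639-34640888 (plus), chr19:34583279-34583528 (plus) and chr12:26456453-26456702 (minus), printed 5′ to 3′ toward the gene, with matches in capitals.
Isg15: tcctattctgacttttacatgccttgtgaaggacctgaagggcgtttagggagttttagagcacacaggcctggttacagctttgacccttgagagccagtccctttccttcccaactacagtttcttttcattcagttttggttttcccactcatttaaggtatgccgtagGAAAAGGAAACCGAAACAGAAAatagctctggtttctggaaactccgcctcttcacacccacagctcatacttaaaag
Ifit1: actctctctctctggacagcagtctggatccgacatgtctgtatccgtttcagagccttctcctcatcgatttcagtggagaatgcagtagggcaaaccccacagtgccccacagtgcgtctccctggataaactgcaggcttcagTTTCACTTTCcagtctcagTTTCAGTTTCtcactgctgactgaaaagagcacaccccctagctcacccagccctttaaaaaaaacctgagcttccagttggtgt
Ifit3: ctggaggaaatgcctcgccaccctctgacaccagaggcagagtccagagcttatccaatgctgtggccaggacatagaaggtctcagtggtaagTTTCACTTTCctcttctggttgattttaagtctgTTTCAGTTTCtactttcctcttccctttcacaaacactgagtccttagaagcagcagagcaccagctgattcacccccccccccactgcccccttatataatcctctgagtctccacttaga
Rsad2: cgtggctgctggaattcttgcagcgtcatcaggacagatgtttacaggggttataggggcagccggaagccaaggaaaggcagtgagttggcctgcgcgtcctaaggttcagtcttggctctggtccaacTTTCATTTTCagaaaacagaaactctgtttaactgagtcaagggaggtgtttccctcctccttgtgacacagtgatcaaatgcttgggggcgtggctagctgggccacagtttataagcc
Isg15 held 3 overlapping matches in a row, Ifit1 and Ifit3 held 2 apart from each other, and Rsad2 held 1. No match was found in the windows of Ifit2, Irf7, Xaf1, H2-Q6, H2-Q7, Cxcr4, Csf1 or Retnlg. Of the 6 genes highest in LNP-cGAMP over PBS, 3 had a window and 1 of these held a match.

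MHC class I genes were above PBS mainly in LNP-cGAMP, where 9 of 18 measured were higher and 2 lower (median 0.56), beside 9.27% and 15.7% of all genes. In anti-PD-L1 1 was higher and none lower (0.17), near the 3.39% of all genes that were higher, and 8.5% were lower. In the combination 4 were higher and 2 lower (0.24), beside 6.51% and 19%. H2-Q7 and H2-Q6, non-classical class I genes of the Qa region, had the largest ratios. H2-Q7 was at 61.4 CPM in PBS, 589 CPM in LNP-cGAMP, 62.5 CPM in anti-PD-L1 and 256 CPM in the combination, and H2-Q6 at 11.8, 419, 23.9 and 154 CPM. Both were highest in the 2 libraries with LNP-cGAMP. Over PBS, log2 ratios in anti-PD-L1 were 0.02 for H2-Q7 and 0.63 for H2-Q6, the latter from 10 UMIs in PBS and 21 UMIs in anti-PD-L1. The 2 genes are near-identical copies of each other, so their split is uncertain. H2-K1, a classical class I heavy chain, was at 2039.6, 4465, 2307 and 3501 CPM. Of 14 measured interferon-gamma response genes 5, 3 and 4 were higher in LNP-cGAMP, anti-PD-L1 and the combination, and 1, none and 1 lower, to be read against the same shares of all genes. Gbp4, a guanylate-binding protein that acts on intracellular pathogens, was at 48.4, 264, 162 and 122 CPM, above PBS in each. Mnda, a nuclear protein of myeloid cells, was at 20.1, 266, 52.2 and 120 CPM.

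The hypoxia and glycolysis list differed most between Retnlg-low and Retnlg-high cells in the LNP-cGAMP library. In Retnlg-low cells 1 of 21 measured genes was higher and 2 were lower than in PBS (9.27% and 15.7% of all genes), with a median log2 ratio of -0.01. In Retnlg-high cells none was higher and 16 were lower, with a median of -0.997, where 7.14% of all genes were higher and 13.8% lower (median -0.12). Anti-PD-L1 leaned the same way: past 1.5-fold, its Retnlg-high cells had 7 of the 21 below PBS and 1 above (median -0.52). Among all genes 13.2% and 4.23% were so. Its Retnlg-low cells had 1 below PBS and none above (-0.26), beside 8.5% and 3.39%. Combination counts below PBS were 3 in Retnlg-high (-0.20) and 1 in Retnlg-low cells (-0.06), beside 13.8% and 19%. Counts above PBS there were none and 1, beside 5.14% and 6.51%. Within LNP-cGAMP, 13 of 22 genes were higher in Retnlg-low than in Retnlg-high cells and 2 lower (median 0.68). Among all genes 17.5% and 4.23% were so (median 0.22). Elsewhere the higher genes numbered 1 (PBS), none (anti-PD-L1) and 1 (combination), where 12.6%, 16.8% and 12.7% of all genes were higher. The lower genes numbered 1, none and 1 in the same order, beside 2.11%, 1.47% and 2.45%. The list medians of -0.33, -0.10 and -0.01 lay below the 0.22, 0.26 and 0.18 of all genes. Aldoa, the glycolytic enzyme aldolase A, was at 860 CPM in PBS, 944 CPM in LNP-cGAMP, 748 CPM in anti-PD-L1 and 906 CPM in the combination in Retnlg-low cells. In Retnlg-high cells it was at 1147, 507, 720 and 909 CPM, lowest in LNP-cGAMP. Pgam1, phosphoglycerate mutase, was at 974, 916, 1019.96 and 967 CPM in Retnlg-low and at 975, 453, 915 and 887 CPM in Retnlg-high cells. Pkm, the pyruvate kinase of most tissues, was at 2412, 1923, 2345 and 2222 CPM against 2592, 1219.6, 2360.1 and 2253 CPM. These 3 enzymes were lowest in the Retnlg-high cells of LNP-cGAMP. Gapdh, the glycolytic dehydrogenase often used as a reference gene, was low in both cell groups of LNP-cGAMP, at 2693, 1575, 2359 and 2004 CPM in Retnlg-low and at 3559, 1387, 2481 and 2472 CPM in Retnlg-high cells. Its log2 ratio over PBS was -0.77 and -1.35 in the 2 groups of that library, and its ratio of Retnlg-low over Retnlg-high cells there was 0.18, below the 0.22 of all genes. The Retnlg-high group of LNP-cGAMP also had the deepest cells of the neutrophil groups, with a median of 2813 UMIs, and the share of depth in the difference was not tested.

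**Figure D5:**
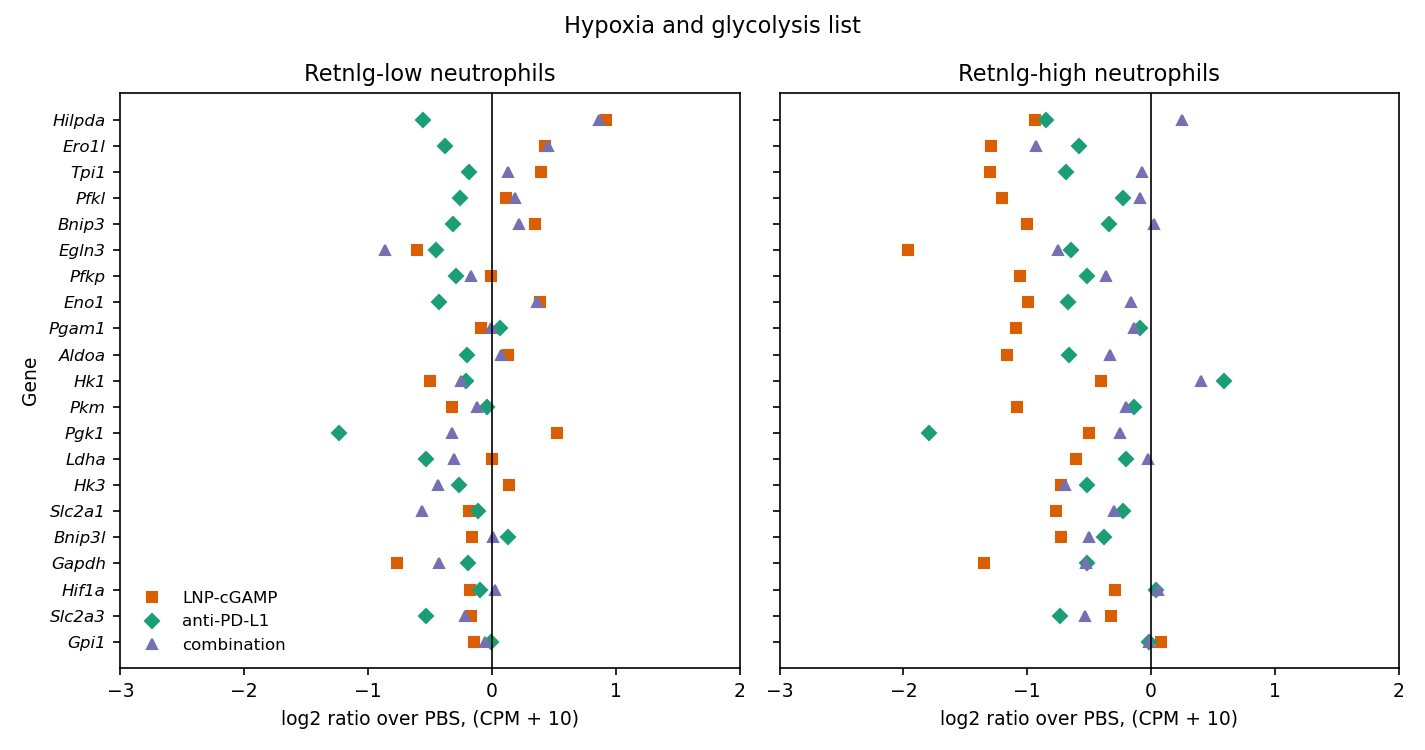
Log2 ratio of CPM + 10 over PBS (horizontal axes) for the 21 measured genes of the hypoxia and glycolysis list in Retnlg-low cells (left) and Retnlg-high cells (right), 1 symbol per treated library. The LNP-cGAMP symbols centre on -0.01 on the left and on -0.997 on the right.

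Chemokine genes were mostly lower in anti-PD-L1 than in PBS. Of 12 measured, 10 were lower and 1 higher (8.5% and 3.39% of all genes), with a median log2 ratio of -1.37. In Retnlg-high cells 8 of the 12 were lower and 1 higher (13.2% and 4.23% of all genes), with a median of -0.91. Ccl6 and Ccl9, chemokines of myeloid cells that bind Ccr1, were at 2342 and 357 CPM in PBS and at 1532 and 134 CPM in anti-PD-L1 in Retnlg-low cells. In macrophages of the same libraries they were at 15134 and 2583 CPM and at 15180.4 and 2396 CPM. Removing the profile of near-empty droplets at 5.40% of UMIs in PBS and 5.23% in anti-PD-L1 left 10 lower and 1 higher in Retnlg-low cells, with a median of -1.46. These shares are the smaller of the estimates from C1q genes and from haemoglobin genes, and they come from different genes. The PBS share came from haemoglobin, where C1q gave 15.1%. That of anti-PD-L1 came from C1q, where haemoglobin gave 74.6%. At 5.40% and 5.23% the removal set Ccl7, Ccl8 and Ccl12 to 0 in anti-PD-L1 and Ccl5 to 0 in PBS. Ccl7, Ccl8 and Ccl12 are among the 10 lower, at log2 -3.35, -3.28 and -1.94. Ccl5 is the 1 higher, at 4.03, so these 4.03 and negative values rest on levels of 0. At the share given by the C1q genes alone (15.1% in PBS and again 5.23%), a setting chosen after the data were seen, 5 were lower and 3 higher. Levels below 0 are set to 0 in this step, which at the C1q share was so for 5 of the 12 in PBS and for 3 of these 5 in anti-PD-L1 too, so the median of 0 came from genes without a ratio to read. Ccl9 was set to 0 in PBS (20.1 CPM in anti-PD-L1), which made its log2 ratio 1.59 in place of -1.35, and Ccl6 was at 778 and 927 CPM, or 0.25 in place of -0.61. Cxcl2 and Ccl3 stayed past 1.5-fold lower at that share, at -0.84 and -2.32. Ccl8, a monocyte-attracting chemokine, was at 134 CPM in PBS and 20.4 CPM in anti-PD-L1, and at 919 and 715 CPM in macrophages. Cxcl2, which draws neutrophils through Cxcr2, was at 1788 CPM in PBS, 1359 CPM in LNP-cGAMP, 1096 CPM in anti-PD-L1 and 1465 CPM in the combination, and at 29.0 to 71.3 CPM in macrophages. Cxcl2 was thus far higher in the neutrophils than in macrophages, and it was lowest in anti-PD-L1, at log2 -0.70 over PBS and -0.53 with TMM scaling. One cell held 23.5% of the Cxcl2 UMIs in LNP-cGAMP. Without the cell with most UMIs in each library, the log2 ratio over PBS was -0.71 in LNP-cGAMP and -0.77 in anti-PD-L1. Il1b, the interleukin 1 beta gene, was at 4790.5, 4781, 4091 and 3823 CPM, within 1.5-fold of PBS in all 3, and Il1rn, its antagonist, at 184, 420, 235 and 410 CPM.

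Some of the largest single ratios rested on 1 cell. Ccl5, a chemokine of T cells and interferon-treated myeloid cells, was at 10.6 CPM in PBS, 472 CPM in LNP-cGAMP, 157 CPM in anti-PD-L1 and 38.5 CPM in the combination. One cell held 84.8% of its UMIs in anti-PD-L1, and without the cell with most UMIs the log2 ratio over PBS was 0.80 in place of 3.01, while in LNP-cGAMP it was 4.48 in place of 4.55. Vcan, a matrix proteoglycan of monocytes, was at 7.09, 13.6, 74.96 and 15.9 CPM, with 57.6% of the anti-PD-L1 UMIs in 1 cell and a ratio of 1.39 in place of 2.31 without it. Ccl3, an inflammatory chemokine, was at 79.2, 175, 10.2 and 36.2 CPM, with 44.8% (PBS) and 78.7% (LNP-cGAMP) in 1 cell. Its anti-PD-L1 ratio over PBS was -2.14, and -1.58 without those cells. Ptgs2, which codes for cyclooxygenase 2, was at 96.9, 102, 12.5 and 36.2 CPM, and its ratio of -2.25 in anti-PD-L1 was -2.30 without the cell with most UMIs.

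The genes with the lowest ratios in LNP-cGAMP were Arg1, S100a4, Crip1 and Rgcc. Arg1, the arginine-degrading enzyme of alternatively activated macrophages, was at 499 CPM in PBS, 63.2 CPM in LNP-cGAMP, 147 CPM in anti-PD-L1 and 242 CPM in the combination. In macrophages it was at 4779.7, 2027, 4668 and 3694 CPM, and in near-empty droplets at 3325, 1586, 3584 and 3321 CPM. S100a4 and Crip1 were likewise at 540 to 3319.6 CPM in macrophages, and at 22.3 to 540.02 CPM in Retnlg-low cells. A UMI of C1qa, a complement gene of macrophages, was found in 57.0%, 23.7%, 20.1% and 41.9% of Retnlg-low cells. C1qa, Arg1, S100a4 and Crip1 were all highest in PBS. C1qa was lowest in anti-PD-L1, whereas Arg1, S100a4 and Crip1 were lowest in LNP-cGAMP. The part of macrophage RNA in the ratios was not tested. At the C1q share the subtraction set Arg1 to 0 in all 4 libraries, so no ratio can be read there, in place of -2.80 in LNP-cGAMP without it. Rgcc, a regulator of the cell cycle, was at 170, 31.0, 123 and 102 CPM in Retnlg-low cells and at 20.6 to 60.5 CPM in macrophages, so the PBS level was above that of macrophages. Pf4, a platelet and macrophage chemokine and the lowest gene in anti-PD-L1, was at 610, 141, 116 and 274 CPM against 2883 to 4193 CPM in macrophages. Saa3, an acute-phase apolipoprotein among the highest in the combination, was at 86.3, 456, 104 and 584 CPM against 391, 7854, 735 and 5602 CPM in macrophages.

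Other genes named by the ranking were fewer in kind. Xist and the Y-linked Ddx3y were among the highest and lowest in the combination. Ddx3y had 1 UMI in the combination and was at 30.7 to 108 CPM in the other libraries. Xist had 0 UMIs in Retnlg-low cells of PBS and LNP-cGAMP (3 UMIs, the limit that a count of 0 allows, are 3.545 and 3.72 CPM) and was at 79.5 CPM in anti-PD-L1 and 74.7 CPM in the combination. C4b, a complement gene, was at 8.27 CPM in PBS and 52.2 CPM in anti-PD-L1, and at 99.0 to 150 CPM in macrophages. Egr1, an immediate early transcription factor, was at 134 CPM in PBS, 28.5 CPM in LNP-cGAMP, 51.1 CPM in anti-PD-L1 and 9.06 CPM in the combination, above the 4.98 to 10.4 CPM of macrophages in all but the last. Rgs3, a brake on G protein signalling, was at 197, 96.7, 133 and 36.2 CPM, and Atp5o, a subunit of ATP synthase, at 102, 57.0, 77.2 and 20.4 CPM. Both were lowest in the combination, and Atp5o was at 52.5 CPM in its Retnlg-high cells.

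The counts of the remaining lists are read against 9.27%, 3.39% and 6.51% of all genes higher and 15.7%, 8.5% and 19% lower in LNP-cGAMP, anti-PD-L1 and the combination. Counts near these shares, such as 2 higher of 22 lysosome genes in LNP-cGAMP, are not results about a list. Of 24 measured genes of tissue-adapted and aged neutrophils, 8, none and 4 were higher and 2, 3 and 4 lower than in PBS in that order. Of 20 of mature circulating neutrophils 5, 2 and 6 were higher and 1 each lower, Mmp8 being higher in all 3. Of 25 NF-kB and immediate early genes 4, none and 2 were higher and 2, 3 and 6 lower, and Egr1 and Ier3 were lower in all 3. Of 16 apoptosis and survival genes 3, none and 1 were higher and 2, 3 and 3 lower, with Bcl2a1b, a survival gene of a near-identical cluster, and Cdkn1a, the cell cycle inhibitor p21, lower in all 3. Of 22 genes of lysosome and iron handling 2, none and 1 were higher and 2, 4 and 4 lower. Hmox1, the heme-degrading enzyme, was lower in all 3, at 520, 302, 195 and 322 CPM, against 2609 to 3175 CPM in macrophages. Of 14 adhesion genes 3, 2 and 2 were higher and 1, 1 and 4 lower, and Cd14, the lipopolysaccharide co-receptor, was higher in all 3 at 566, 855, 888 and 1128 CPM. Of 10 measured mt- genes none was higher and 8 lower in LNP-cGAMP, 1 higher and none lower in anti-PD-L1, and none higher and 4 lower in the combination. Their median log2 ratios were -1.14, 0.32 and -0.30, and became -0.12, 1.15 and 0.62 with background removed at the C1q share described above. Of 13 housekeeping genes 2, none and none were higher and 4, 2 and 2 lower, with medians of -0.19, -0.13 and -0.31, and Ppia was lower in all 3. Of 7 heat shock genes 1, none and none were higher and 3, 2 and 4 lower, with the chaperones Hsp90ab1 and Hspe1 lower in all 3. Of 14 oxidase genes none was higher and 1, 2 and 3 lower, with Ltc4s, which makes leukotriene C4, lower in all 3.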

How the data were processed

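Cells of 4 pools of pleural fluid were profiled by 10x Genomics single-cell RNA-seq, and the sample labels name the v2 reagent kit for every library while the series text names V3. All 4 matrices use 1 shared barcode list, so no label or file separates the libraries by kit. The deposited values are raw UMI counts per gene and barcode, not normalized, over 27998 genes. The matrices come from Cell Ranger, version 3.0.2, per the file headers, with build mm10 per the submitters' processing notes. Counts of all gated cells of a library and class were summed and divided by their total (CPM). Ratios are log2 of (CPM + 10), over genes with 50 UMIs over the sums and 50 CPM in at least 1. No doublet caller was run. No test was made: treatments have 1 library each, and the 4 pairs of Retnlg-low and Retnlg-high cells carry none because the Retnlg limit made that contrast. Computation used Python 3.11.15, numpy 2.4.6, scipy 1.17.1, pandas 2.3.3 and edgeR 4.0.16 (TMM factors only). The ratio step was also run on Poisson counts drawn from the PBS profile with set changes. Those counts hold no background RNA, no genes resting on 1 cell and no spread between pools, so that run cannot speak to these limits. Near-empty droplets held 10 to 100 UMIs. Gene coordinates are from GENCODE on GRCm38 and start regions from RefSeq.

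The text names Cxcr4, Csf1 and Mmp9, the 12 highest and 8 lowest genes by the smallest of the 4 same-sign ratios of Retnlg-low over Retnlg-high cells, the 6 highest and 4 lowest of each treatment over PBS, and of each list up to 4 of the most abundant genes and those past 1.5-fold in all 3 or all 4 libraries. Other genes of a list are named as examples chosen after their values were seen. The cells, gene lists and gate were chosen with earlier results of these data known.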

Additional observations from a re-analysis of the deposited data

Results flagged for a closer look

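Cxcl10 and Vcan ran in opposite directions in the 2 cell groups, and the difference was not tested. Cxcl10, an interferon-induced chemokine, stood below PBS in Retnlg-low cells of anti-PD-L1 (log2 -1.15) and of the combination (-0.98), but above PBS in Retnlg-high cells (2.97 and 2.84). Its Retnlg-high level was 6.28 CPM in PBS, from 4 UMIs where 3 UMIs are 4.71 CPM, so these ratios rest on a count near 0, and 134, 118 and 106 CPM in the treated libraries. It was at 269 CPM in PBS, 525 CPM in LNP-cGAMP, 116 CPM in anti-PD-L1 and 131 CPM in the combination in Retnlg-low cells. The PBS value came from 228 UMIs in 23 of 395 cells, with 24.6% in 1 cell, and 1 cell held 47.1% of its UMIs in anti-PD-L1. Vcan stood above PBS in Retnlg-low cells of anti-PD-L1 (2.31) and of the combination (0.60) and below it in Retnlg-high cells (-0.67 and -0.87), and it rested on 66 UMIs with the antibody alone and 7 UMIs in the combination.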

How the results depend on the processing

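Of the recomputed shares 13 moved and 15 did not, and of the other values 185 gene ratios moved (40 with TMM scaling and 42 with a pseudocount of 50 CPM), 3 reversed and 1660 did neither, while 12 levels and 6 list medians moved (156 and 982 did not). A Retnlg maximum of 10 gave 51.5%, 36.5%, 41.8% and 26.3% in the order of libraries used above, and a maximum of 40 gave 72.35%, 54.8%, 68.3% and 53.2%. Thinning moved LNP-cGAMP, anti-PD-L1 and combination to 41.4%, 50.2% and 34.7%, and leaving out cells with markers of other types moved PBS to 44.8% and combination to 47.2%. TMM scaling gave 522 genes higher and 193 lower for LNP-cGAMP, 182 and 130 with the antibody alone, 337 and 217 for the combination, and 6 and 37 for Retnlg-low over Retnlg-high. A pseudocount of 50 CPM gave 158 and 202, 50 and 87, 109 and 195 for the treatments over PBS, 30 and 92 for combination over LNP-cGAMP, 66 and 58 for combination over anti-PD-L1, and 10 higher for Retnlg-low over Retnlg-high. A filter of 20 UMIs without a CPM minimum gave 416 and 1234, 219 and 728, 340 and 1409, 466 and 610, and 386 and 752 in that order. A Retnlg maximum of 10 gave 353 lower for combination over anti-PD-L1. In alternatives chosen after seeing the data, CPM outside the gate genes gave 19 and 23 for Retnlg-low over Retnlg-high and 246 higher for combination over LNP-cGAMP, and background subtracted at the C1q share turned Ccl9 to 1.95 in LNP-cGAMP and 1.59 in anti-PD-L1 and Ccl6 to 0.25 in anti-PD-L1. The subtraction itself set the Ccl9 level of PBS to 0. The cause of the other moves was not tested. The other 123 gene counts stayed within 1.5 times. No paired analysis was possible because each treatment has only 1 library and so 1 replicate number, and the pairs of Retnlg-low and Retnlg-high cells of a library differ by the Retnlg limit that made them. Depth limits genes of few UMIs, since 3 UMIs were 3.41 to 6.79 CPM.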
